A study of Mus musculus with 6 samples.

Results

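Genes of newborn and growing dentate granule neurons were followed in 6 Smart-seq2 libraries of tdTomato-positive cells from the mouse hippocampal dentate gyrus. The set holds 10 genes, Stmn1, Dcx, Sox11, Sox4, Marcksl1, Nrep, Neurod1, Calb2, Igfbpl1 and Dpysl3. They were taken by symbol from a table of 55367 gene symbols for their known roles in young neurons. Earlier results of these data were known at that point. All 10 were found. Every mouse was TRAP2;Ai9, that is, carried the tamoxifen-dependent recombinase iCreERT2 at Fos, a gene switched on by activity, and a tdTomato reporter in Rosa26 that the recombinase turns on, and every mouse went through learned helplessness, a procedure of uncontrollable stress. The cells active around it were permanently labelled and later sorted. Of the libraries, 3 came from mice without running (LH+ NR, here NR) and 3 from mice with 28 days of voluntary running (LH+ Run, here Run), and the labels place all of them in 1 batch. The library names carry a suffix that the labels do not explain and that the column names of the table leave out. Age, sex, and the number of animals and cells behind a library are not given in the sources used here, so p-values reflect how these libraries scatter, and that scatter may be technical.

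In the adult dentate gyrus, stem cells give rise to dividing intermediate progenitors, these to neuroblasts and immature neurons that extend a dendrite and an axon, and these to mature granule neurons. The genes of the set act at the middle of this path. Sox4, Sox11 and Neurod1 are transcription factors that start and maintain neuronal differentiation, Dcx, Stmn1, Dpysl3 and Marcksl1 act on the cytoskeleton of growing neurites, and Calb2 encodes calretinin, a calcium buffer that young granule neurons hold for a short time. Voluntary running is known to raise the number of newborn neurons in the mouse dentate gyrus. The comparison of Run with NR asks how running changes labelled dentate cells. The order of running and labelling is not given here, and the values are not a count of newborn neurons.

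The sample titles name tdTomato-positive neurons, yet the libraries held RNA of several cell types. Values are FPKM, fragments scaled by transcript length and by library total, so levels of different genes can be compared. Between 5426 and 7355 genes reached FPKM 1 in a library, with the lowest count in NR replicate 1 and the highest in NR replicate 2. Of 12 astrocyte markers 10 reached FPKM 1 in all 6 libraries, whereas none of 12 markers of mature granule neurons did, and 4 of these stayed below 1 in every library. In such summed material fewer cells of a type and less RNA per cell cannot be told apart.

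Promoters are shown for the 3 transcription factors and for Dcx, to set the relatives Sox4 and Sox11 beside the bHLH gene Neurod1, whose family binds E-boxes, and beside the best known marker of newborn neurons. RefSeq sequences on GRCm38.p6 matched 5 of the 10 genes, with a pair of entries for Dcx, of which the one farther upstream is given. Each line holds the 250 bases before the RefSeq start of transcription, 5′ to 3′ on the gene's own strand. All 4 genes lie on the minus strand. These starts are not those of the gene positions given below, which come from GENCODE. By those positions the windows of Dcx, Sox4 and Neurod1 lie partly inside the gene, and that of Sox11 lies wholly before the gene. The windows are chrX:143933220-143933469 for Dcx, chr13:28953700-28953949 for Sox4, chr12:27342719-27342968 for Sox11 and chr2:79456637-79456886 for Neurod1. Capitals mark the E-box CANNTG, the CCAAT box CCAAT and the TATA box TATAAA, each searched on both strands, and no marked motifs overlapped.
Dcx: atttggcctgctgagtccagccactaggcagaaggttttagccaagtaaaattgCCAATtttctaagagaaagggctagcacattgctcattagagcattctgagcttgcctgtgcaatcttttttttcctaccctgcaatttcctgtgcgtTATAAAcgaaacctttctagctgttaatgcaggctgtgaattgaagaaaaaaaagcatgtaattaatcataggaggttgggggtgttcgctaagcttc
Sox4: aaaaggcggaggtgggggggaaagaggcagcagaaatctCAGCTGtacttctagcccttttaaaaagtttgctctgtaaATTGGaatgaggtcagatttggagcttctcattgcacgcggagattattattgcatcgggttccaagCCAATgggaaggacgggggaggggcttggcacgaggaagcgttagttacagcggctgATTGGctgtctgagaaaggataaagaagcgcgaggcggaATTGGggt
Sox11: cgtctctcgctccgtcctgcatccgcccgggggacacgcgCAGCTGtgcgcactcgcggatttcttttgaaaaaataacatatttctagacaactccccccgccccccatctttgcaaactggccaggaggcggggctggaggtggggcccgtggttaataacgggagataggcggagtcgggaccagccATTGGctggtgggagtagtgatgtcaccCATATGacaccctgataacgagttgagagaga
Neurod1: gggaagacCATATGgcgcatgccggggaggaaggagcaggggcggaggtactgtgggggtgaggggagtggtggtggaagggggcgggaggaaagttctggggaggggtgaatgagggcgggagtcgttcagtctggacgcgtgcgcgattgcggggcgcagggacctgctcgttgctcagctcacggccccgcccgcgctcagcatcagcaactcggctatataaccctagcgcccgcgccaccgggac

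The windows of Sox4 and Sox11 each held the E-box CAGCTG, at 211 and 210 bases before the start. Sox11 held a further E-box of the sequence CATATG at 32 bases, and Neurod1 held the same letters at 242 bases. Sox4 had 4 CCAAT boxes and Sox11 had 1. Dcx was the only 1 of the 4 with the exact letters TATAAA, at 98 bases, and had no E-box in this window. The Neurod1 window held the similar letters TATATAA near its end, which the search did not count. The Marcksl1 window, not shown, held 1 E-box and 1 CCAAT box. Among 32851 promoter windows of the same length, 66.2% held the E-box, 33.8% the CCAAT box and 12.4% the TATA box. These matches are descriptions of the letters only.

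Stmn1 (chromosome 4, 134468320 to 134473843, mm10) encodes stathmin 1, which binds free tubulin and destabilises microtubules in growing cells. In the order of replicates 1, 2 and 3, as in every triplet of values here, it had 150.3, 489.5 and 375 FPKM without running and 663, 447 and 711 with running. It was the highest gene of the set in every library. Run replicate 2 lay below NR replicate 2, so the groups overlapped. The means were 338 ± 173 and 607 ± 140 FPKM (SD, n = 3 each), a ratio of 1.79, and the difference of the log2(FPKM + 1) values, Run minus NR, was 0.97 ± 0.51 (SE) with a 95% interval of -0.22 to 2.17. By limma this difference did not pass (unadjusted p = 0.0961, adjusted p = 0.978). NR replicate 1 was the lowest library. Without it the log2 difference was 0.47, and without NR replicate 2 it was 1.32.

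Dcx (chromosome X, 143855842 to 143933311) encodes doublecortin, which stabilises microtubules in migrating and newborn neurons. It was listed at 0 in NR replicate 1 and had 0.805 and 3.50 FPKM in NR replicates 2 and 3, against 24.7 and 19.8 in Run replicates 1 and 3 and a listed 0 in Run replicate 2. The Run libraries thus held both the highest values and 1 of the 2 zeros. Run minus NR came to 2.01 ± 1.48 on the log2 scale (SE; limma adjusted p = 0.978), with a 95% interval of -1.49 to 5.52, and it was 3.52 without Run replicate 2 and 1.18 without Run replicate 1. Dcx passed the filter of FPKM 1 in at least 3 libraries with exactly 3, of which 2 were Run libraries. Its value was far below that of Stmn1, with a median over the 6 libraries of 2.15 FPKM against 468.

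Dpysl3 (chromosome 18, 43320984 to 43438286) encodes a collapsin response mediator protein of growth cones. Its values were 26.8, 45.2 and 9.57 FPKM for non-runners and 24.8, 0 and 121 for runners. The Run libraries spanned the whole range, from a listed 0 in replicate 2 to the highest value in replicate 3. The log2 difference was -0.70 ± 1.85 (SE; limma adjusted p = 0.983), although the mean of the Run values, 48.6 FPKM, was above that of the NR values, 27.2. The sign followed 1 library, since the difference was 1.24 without Run replicate 2 and -2.23 without Run replicate 3, and it was 0.067 with a pseudocount of 10.

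Marcksl1 (chromosome 4, 129513581 to 129515985) encodes a membrane-bound protein that binds actin and calmodulin. It had 54.3, 18.9 and 49.5 FPKM without running and 77.3, 46.7 and 93.7 with running. Run replicate 2 fell among the NR values, and the other 2 Run libraries lay above all NR libraries. The means were 40.9 ± 19.2 and 72.5 ± 23.9 FPKM (SD, n = 3 each), a ratio of 1.77, and the log2 difference was 0.89 ± 0.76 (SE; limma adjusted p = 0.978). Marcksl1 was one of the steadier genes for its level. Its residual SD between libraries of a group was 0.68 on the log2 scale, against a median of 2.39 for 874 tested genes with a mean FPKM within 0.5 of it on the log2 scale, of which 9.95% had a lower SD. Without NR replicate 2, its lowest library, the log2 difference was 0.42.

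**Figure D1:**
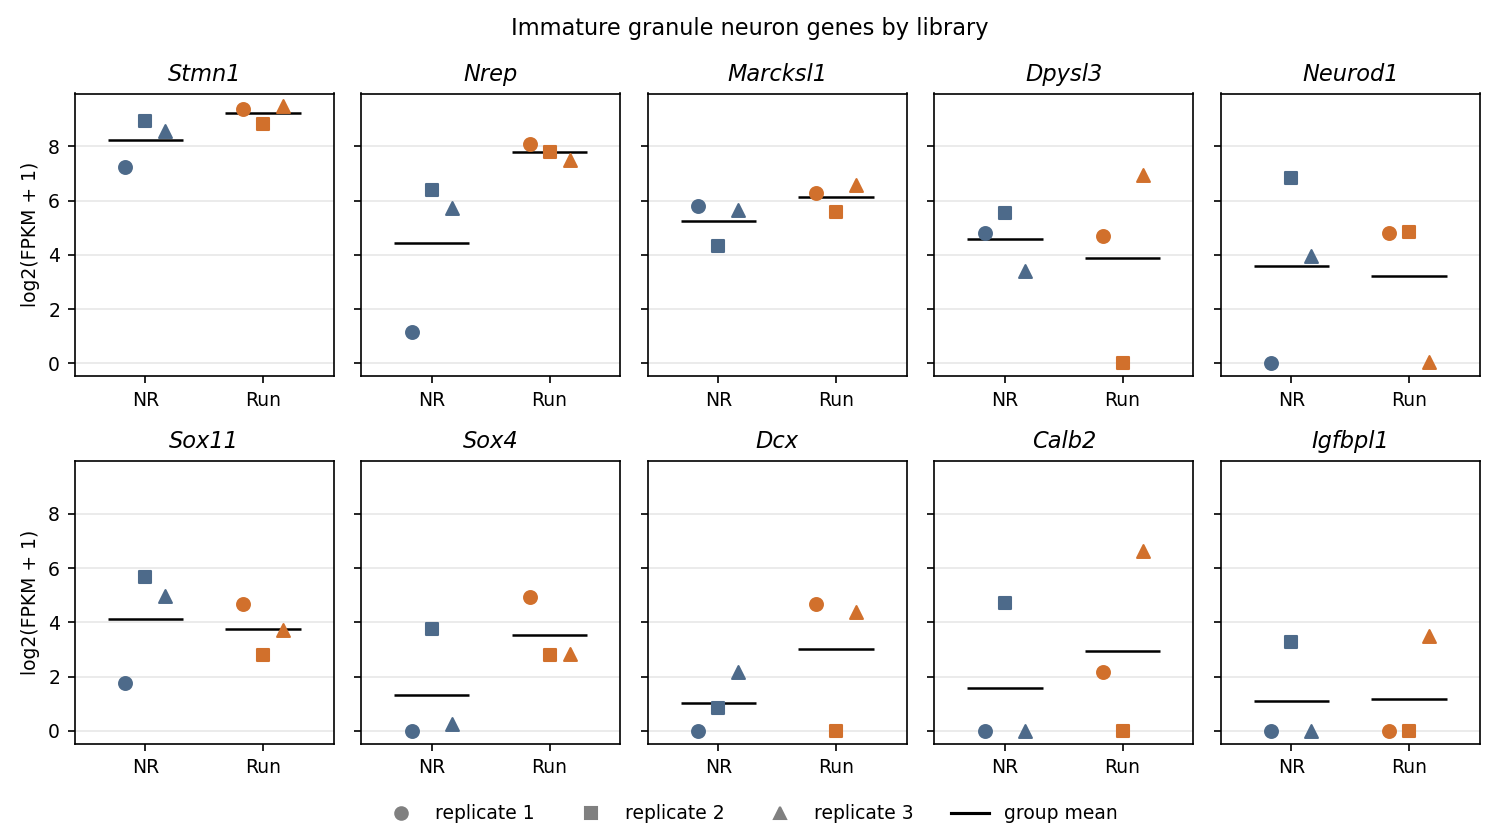
Level of each gene, as log2(FPKM + 1), in the 3 NR (blue) and 3 Run (orange) libraries, with marker shape giving the replicate and a black bar the group mean. Nrep is the gene whose groups do not overlap, and Igfbpl1, Calb2, Dcx, Neurod1, Sox4 and Dpysl3 each have at least 1 library at 0.

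The related transcription factors Sox11 and Sox4 are single-exon genes that act redundantly in neuronal differentiation. Sox11 (chromosome 12, 27334264 to 27342574) had 2.35, 49.9 and 30.6 FPKM for non-runners and 24.7, 6.01 and 12.2 for runners. The NR libraries held both the lowest and the highest value, and the Run libraries lay between them. The means were 27.6 ± 23.9 and 14.3 ± 9.54 FPKM (SD, n = 3 each), with a log2 difference of -0.39 ± 1.40 (SE; limma adjusted p = 0.983). That difference was -1.58 without NR replicate 1 and 0.38 without NR replicate 2, so its direction was set by single libraries.

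Sox4 (chromosome 13, 28948919 to 28953713) was listed at 0 in NR replicate 1 and had 12.6 and 0.186 FPKM in NR replicates 2 and 3, against 29.7, 5.87 and 6.13 in Run. All 3 Run libraries were above FPKM 5, and NR replicate 2 was the NR library that reached into their range. The log2 difference was 2.18 ± 1.46 (SE), with a 95% interval of -1.28 to 5.64 and a limma adjusted p = 0.978. Without NR replicate 2 it was 3.39, and without Run replicate 1 it was 1.47. In NR replicate 3, Sox11 stood at 30.6 FPKM while Sox4 stood at 0.186.

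Neurod1 (chromosome 2, 79452521 to 79456751) encodes a basic helix-loop-helix factor needed for the survival and maturation of newborn granule neurons. It had 0, 112.5 and 14.4 FPKM for non-runners and 26.9, 27.8 and 0.0240 for runners. The highest value belonged to NR replicate 2, and each group had 1 library at or near 0. The log2 difference was -0.36 ± 2.21 (SE; limma adjusted p = 0.989), with a 95% interval of -5.58 to 4.86. It was -2.16 without NR replicate 1, 1.26 without NR replicate 2 and 1.23 without Run replicate 3. Its residual SD of 3.11 was the largest among the 9 tested genes of the set.

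Nrep (chromosome 18, 33437019 to 33464029), which encodes the small neuronal regeneration related protein, was the gene of the set with the largest difference. It had 1.25, 83.9 and 52.3 FPKM without running and 269, 223 and 178 with running. Every Run library lay above every NR library, and NR replicate 1 stood far below the other 2. The means were 45.8 ± 41.7 and 223 ± 45.1 FPKM (SD, n = 3 each), a ratio of 4.87, and the log2 difference was 3.35 ± 1.38 (SE) with a 95% interval of 0.09 to 6.61. The unadjusted limma p was 0.0452 and the adjusted p over all tested genes was 0.978, so it did not pass. An exact permutation test of the log2 values gave p = 0.1, 2-sided, the smallest that 3 libraries against 3 allow. Without NR replicate 1 the log2 difference was 1.72 ± 0.55 (SE; limma adjusted p = 0.648), and over the 6 fits that each left out 1 library it ran from 1.72 to 4.33 with adjusted p-values from 0.605 to 0.997. Nrep varied more within groups than most genes of its level, with a residual SD of 2.03 against a median of 0.97 for 388 tested genes near it, of which 78.9% had a lower SD.

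Calb2 (chromosome 8, 110137502 to 110168210), the calretinin gene, is expressed by immature granule neurons and also by some interneurons and, in the mouse, by hilar mossy cells. It had 0, 25.4 and 0 FPKM for non-runners and 3.46, 0 and 98.1 for runners. The value in Run replicate 3 exceeded the other 5. Between the groups the log2 difference was 1.35 ± 2.11 (SE; limma adjusted p = 0.978), and it was -0.50 without Run replicate 3. The same library was the only 1 of the 6 with the interneuron peptide gene Vip above FPKM 1, at 155.9, and with the mossy cell gene Calcrl above it, at 47.3. Interneuron markers summed to 63.6 to 192 FPKM over 12 genes in NR and to 104 to 335 in Run, where the highest sum was that of Run replicate 3, and Slc32a1, the GABA vesicle transporter, was listed at 0 in every library. Some other genes of these lists were at 0 there. Gad1, a GABA-synthesising enzyme, had 43.4, 1.38 and 31.9 FPKM for non-runners and 46.4, 19.2 and 0 for runners. Its relative Gad2 had 0, 0.0234 and 0 without running and 19.9, 4.58 and 0 with running. The mossy cell marker Ociad2 was listed at 0 in Run replicate 3 and had 24.9 in Run replicate 1. Among the interneuron markers the peptide gene Cck had 52.4, 0 and 47.4 FPKM for non-runners and 0, 0 and 65.03 for runners. Mossy cell markers summed to 109.6 to 193 over 7 genes in NR and 68.3 to 252 in Run, most of it from the broadly expressed adaptor gene Ap2s1, at 193, 98.1 and 141.5 for non-runners and 227, 68.3 and 85.4 for runners. Of the 12 interneuron markers 4 were tested, all with a negative difference and none passing, and of the mossy cell markers 1 was. All 8 Cajal-Retzius cell markers, Reln and Ndnf among them, were listed at 0 in all 6 libraries. The part of these cells in the Calb2 values was not tested.

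Igfbpl1 (chromosome 4, 45809468 to 45826923), a secreted protein related to the insulin-like growth factor binding proteins, was the gene the filter left out. It had 0, 8.60 and 0 FPKM for non-runners and 0, 0 and 10.4 for runners. A single library of each group thus carried a value, the same 2 libraries in which Calb2 was highest. Run minus NR was 0.08 on the log2 scale (exact permutation p = 1, 2-sided).

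As a set, the genes gave no call. By limma 0 of the 9 tested genes passed an adjusted p under 0.05, where 0% of the 6155 tested genes passed. Below an unadjusted p of 0.05 stood 1 of the 9, Nrep, where 4.94% of all tested genes stood there. When a log2 change of 1 or more was also asked for, 1 gene was higher in Run, against 2.42% of tested genes, and 0 were lower, against 2.47%. The groups did not overlap for 1 gene, again Nrep, with Run above, where 4.76% of tested genes did the same. Differences were positive for 6 and negative for 3 of the 9, where 48.9% of all tested genes were positive. The median log2 difference was 0.97 over the 9 and 0.93 over all 10, against -0.03 over all tested genes, and the median SE of the 9 was 1.46. The genes were chosen with earlier results of these data known, and the filter keeps a gene that is high in 1 group. The counts over the 9 thus describe them and support nothing further.

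**Figure D2:**
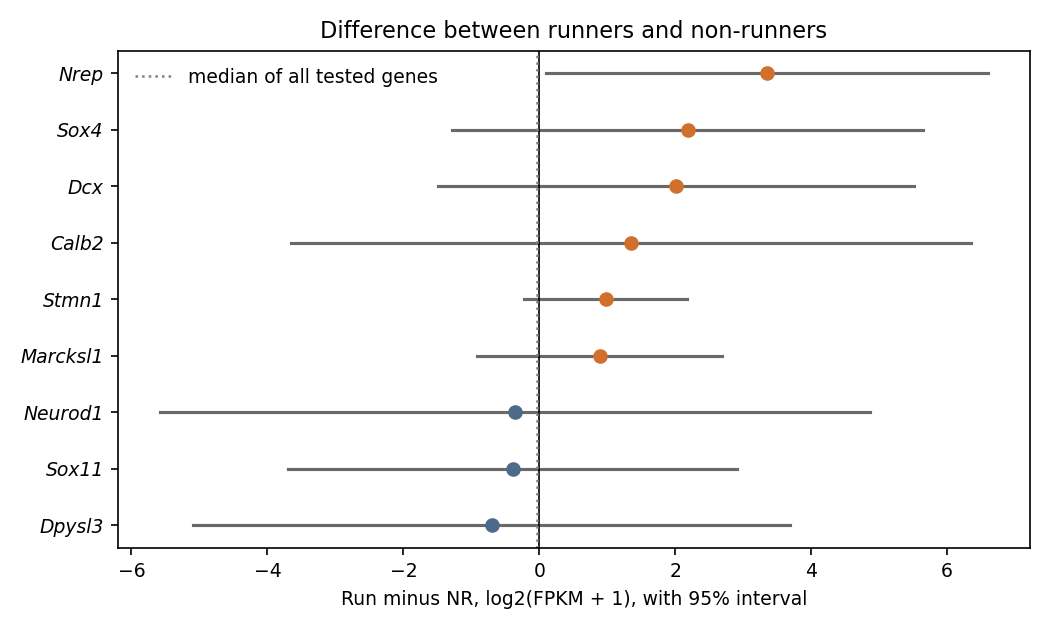
Difference between Run and NR on the log2(FPKM + 1) scale for the 9 tested genes, with 95% intervals from limma and the median of all tested genes as a dotted line. The interval of Nrep runs from 0.09 to 6.61, and the other 8 include 0.

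Libraries of the same group differed widely. Genes of the set at FPKM 1 or more numbered 5, 9 and 7 of 10 in NR and 9, 6 and 9 in Run. NR replicate 1 was lowest of its group for 6 genes, Stmn1, Dcx, Sox11, Sox4, Nrep and Neurod1, where 34.2% of all tested genes had it lowest. NR replicate 2 was highest of its group for 8 genes, where 33.6% of tested genes had it highest. Within Run, replicate 2 was lowest for 7 genes, Stmn1, Dcx, Sox11, Sox4, Marcksl1, Calb2 and Dpysl3, against 34.8% of tested genes. These counts were made after the values were seen and carry no test. NR replicate 1 also had the fewest genes at FPKM 1 or more of the 6 libraries, 5426, and NR replicate 2 the most, 7355. Run replicate 2, with 6136, lay between the other Run libraries, 6291 and 5534. The part of library complexity in the values was not tested.

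The summed FPKM of the 10 genes was 235, 847 and 535 for non-runners and 1143, 756 and 1250.3 for runners. Run replicate 2 lay below NR replicate 2, so the sums overlapped. Stmn1 alone made up 56.8% to 70.1% of the sum. The mean log2 level, which weighs the 10 genes equally, was 2.07, 5.03 and 3.47 without running and 4.97, 3.26 and 5.16 with running. On that scale NR replicate 2 lay between Run replicates 1 and 3, and Run replicate 2 lay below NR replicate 3.

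**Figure D3:**
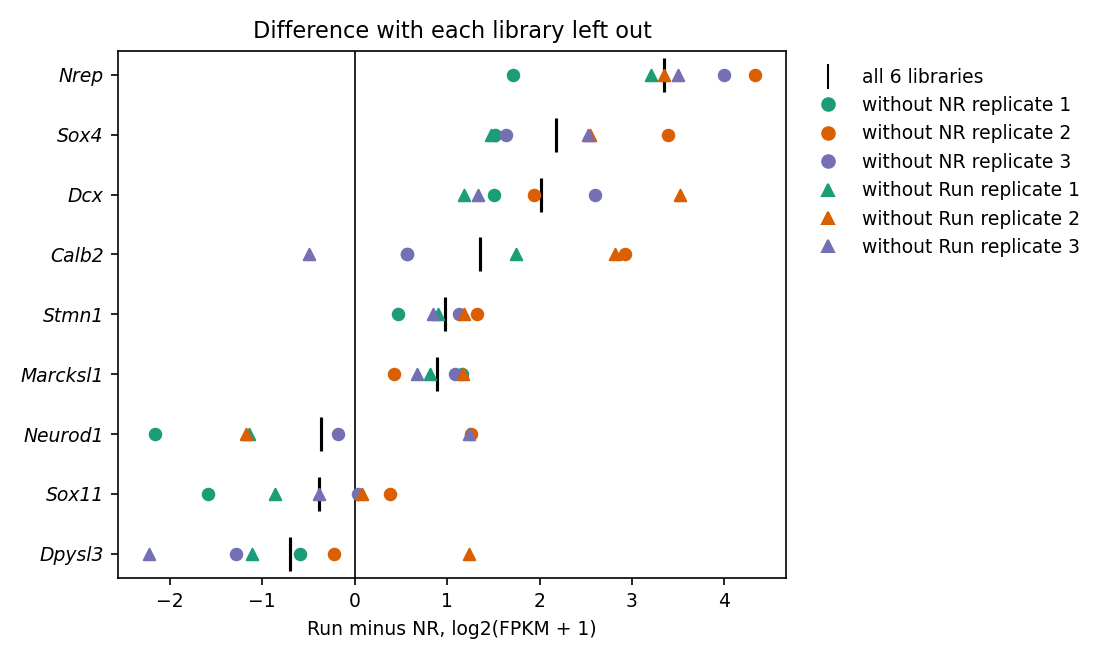
Difference between Run and NR, in log2(FPKM + 1), for each tested gene with all 6 libraries (black bar) and with 1 library left out (circles for NR, triangles for Run, colour for the replicate). Nrep, Sox4, Dcx, Stmn1 and Marcksl1 stay above 0 in all 6 fits, and Calb2, Neurod1, Sox11 and Dpysl3 lie on both sides.

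Close relatives of these genes had differences of both signs. Of 23 relatives 14 were tested, 6 with positive and 8 with negative differences and a median of -0.57. None passed, and 0 had an unadjusted p under 0.05 together with a log2 change of 1 or more. Stmn3, a neuronal stathmin, had 33.6, 109.8 and 129 FPKM without running and 121, 1.10 and 25.6 with running, which gave -2.06 ± 1.54 (SE) for the log2 difference, opposite in sign to Stmn1. Marcks had 4.01, 15.4 and 14.5 in the NR libraries and 6.50, 56.7 and 4.58 in those of Run. For this gene Run replicate 2 was the highest library, while for Marcksl1 it was the lowest of its group. Dpysl2, the most widely expressed collapsin response mediator, had 82.8, 73.5 and 14.04 for non-runners and 152, 66.7 and 145 for runners, a log2 difference of 1.34 ± 0.87 (SE; limma adjusted p = 0.978).

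Other families were covered sparsely. Dclk1, a kinase with doublecortin domains, had 46.3, 15.7 and 42.6 FPKM for non-runners and 81.8, 74.4 and 0 for runners. In Run replicate 2 it stood at 74.4 where Dcx was listed at 0, and in Run replicate 3 at 0 where Dcx stood at 19.8. Sox12, the third SoxC gene, was above 0 in NR replicate 3, at 19.4, and listed at 0 in the other 5. Neurod2 had 0, 20.3 and 5.92 without running and 29.0, 0 and 0 with running. Calb1, the calbindin gene of mature granule neurons, had 0, 15.4 and 0 in the NR libraries and 23.2, 44.3 and 6.41 in those of Run. Unlike Calb2, it had a value in every Run library. Igfbp7, a binding protein gene of vessels, had 3.06, 81.2 and 165 for non-runners and 0, 7.25 and 47.2 for runners.

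Other genes of neuronal differentiation were measured in a list of 25. The list is not confined to young neurons, since it shares Prox1 with the mature granule neuron markers. Of these 25 genes 9 reached FPKM 1 in all 6 libraries and 16 were tested. Differences were positive for 12 and negative for 4, with a median of 0.71, and none passed. Over all tested genes 48.9% were positive and the median was -0.03. This list too was chosen with earlier results known, and the filter keeps a gene that is high in 1 group. These counts are thus a description only. Tmsb10, an actin-binding thymosin, was the highest with 316, 579 and 422 FPKM for non-runners and 750.1, 414 and 919 for runners, a log2 difference of 0.63 ± 0.41 (SE). Tubb3, the neuronal beta tubulin, had 51.5, 44.1 and 188 without running and 253, 69.7 and 227 with running. In both genes Run replicates 1 and 3 were the highest of the 6 libraries and Run replicate 2 fell among the NR values, as it did for Stmn1 and Marcksl1. Nnat, the imprinted neuronatin gene, had 562, 397 and 555 in the NR libraries and 502, 439 and 344 in those of Run, and Fez1, of axonal transport, had 333, 237 and 149.7 for non-runners and 205, 221 and 287 for runners. Neither of these followed that order.

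Gap43, the growth cone protein gene, had the smallest p of that list. Its values were 0.643, 10.3 and 0 FPKM without running and 23.2, 35.6 and 57.3 with running. The groups did not overlap, with every Run library above every NR library. Run exceeded NR by 3.81 ± 1.39 (SE) on the log2 scale, with an unadjusted p of 0.0287 and an adjusted p of 0.853 by limma. It was the only gene of the 16 tested whose groups stood apart, where 4.76% of all tested genes had Run above in this way. Bhlhe22, a transcription factor of postmitotic neurons, had 0, 0.000557 and 2.37 without running and 18.2, 0 and 21.7 with running. As for Dcx, its highest values were in Run replicates 1 and 3, NR replicate 3 had a low value and Run replicate 2 was listed at 0. Prox1, which specifies granule neuron identity, had its highest value, 39.9, in that same Run replicate 2.

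Genes of the step before, intermediate progenitors and dividing cells, were thinly covered. Of 15 only Ccnd2, the cyclin D2 gene, reached FPKM 1 in all 6 libraries, with 48.8, 113 and 119.7 FPKM for non-runners and 41.3, 48.0 and 151 for runners. A total of 6 were tested, 3 positive and 3 negative, and none passed. Eomes, the defining factor of intermediate progenitors, was above FPKM 1 in NR replicate 2 alone, at 16.4, and Mki67, the proliferation marker, in NR replicate 1 alone, at 12.2. Neurog2 and Cdk1 were listed at 0 in every library. Top2a, of dividing cells, had 0.0152, 0 and 43.03 in the NR libraries and 6.83, 58.1 and 75.4 in those of Run, while Mcm3, of DNA replication, had 50.8, 33.8 and 31.4 for non-runners and 0.00879, 30.1 and 0 for runners. Mcm3 had all NR values above all Run values, a pattern shared by 4.19% of tested genes, with a log2 difference of -3.62 ± 1.65 (SE; limma adjusted p = 0.978). Pcna, the replication clamp, had 61.4, 74.3 and 0.0517 without running and 281, 2.87 and 3.36 with running. The chromatin gene Hmgb2 had 0.0490, 65.7 and 99.6 for non-runners and 80.9, 16.6 and 150.4 for runners. Of these genes Top2a, Pcna and Hmgb2 had at least 1 NR library at or near 0, and Mcm3 had this in Run.

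**Figure D4:**
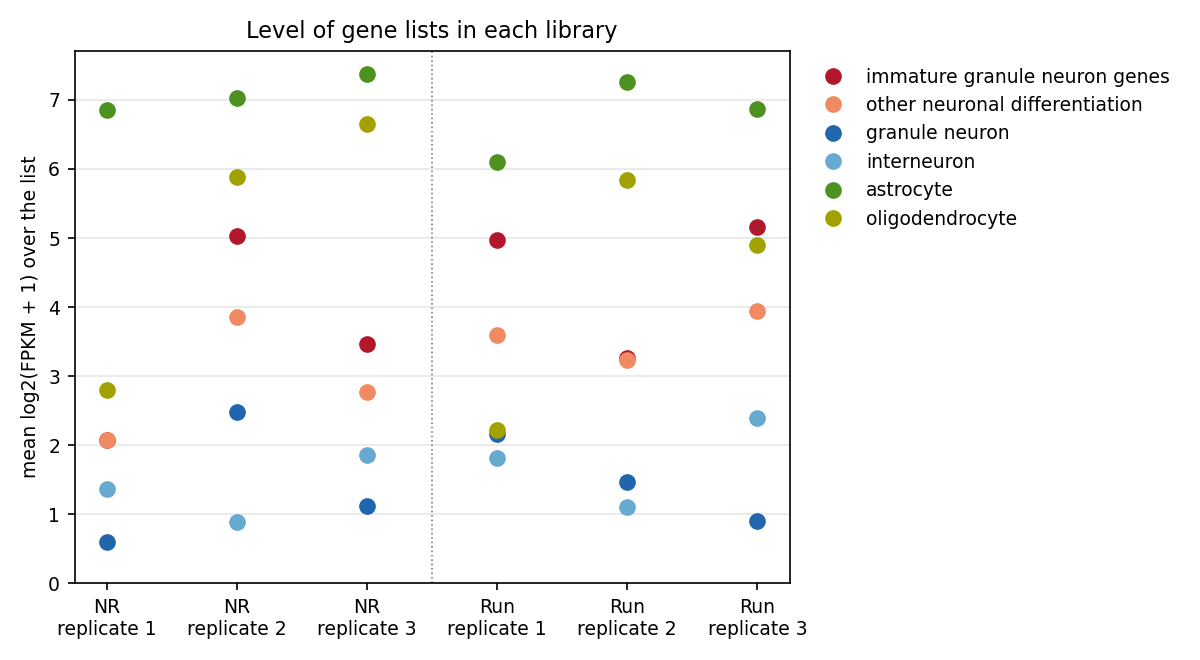
Mean log2(FPKM + 1) of 6 gene lists in each library, with NR on the left and Run on the right of the dotted line. The immature granule neuron genes range from 2.07 to 5.16, below the astrocyte markers in every library and above the granule neuron and interneuron markers in every library.

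By summed FPKM, astrocyte markers ran in the opposite order to the set within each group. Astrocyte markers summed to 2778 to 4946 FPKM over 12 genes in NR and to 2914 to 5597 in Run. Aldoc, a glycolytic enzyme, was the highest with 2655, 1028 and 1765 FPKM without running and 1903, 2580 and 1255 with running. Next was Gfap, the astrocyte filament, with 987, 555 and 1055 for non-runners and 440.1, 1260 and 755 for runners. Run replicates 1 and 3, high in the set, had the lower astrocyte sums of their group, 2924 and 2914, as had NR replicate 2 at 2778. NR replicate 1 and Run replicate 2, lowest of their groups in the set, had the highest, 4946 and 5597. The mean log2 level of the list, 6.85, 7.03 and 7.37 for non-runners and 6.11, 7.26 and 6.86 for runners, did not keep this order in either group. Oligodendrocyte markers summed to 257 to 1545 over 10 genes in NR and to 183 to 998 in Run. Among them Mbp, the myelin basic protein gene, had 67.7, 408 and 372 for non-runners and 21.7, 66.8 and 256 for runners. Run replicate 1, high in the set, had the lowest oligodendrocyte sum, 183, and Run replicate 3, the highest in the set, had the highest of Run, 998. NR replicate 1 was the lowest of NR in both, at 257 for these markers. The part of these cells in the values of the set was not tested.

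Markers of precursor cells, vessels and microglia varied as well. Oligodendrocyte precursor markers summed to 1.09 to 56.5 FPKM over 10 genes in NR and to 31.0 to 50.9 in Run, and none reached FPKM 1 in all 6 libraries. Olig1 had 0, 0.0625 and 18.5 without running and 13.8, 17.7 and 38.8 with running, and Lhfpl3 was above 1 in NR replicate 3 alone, at 37.9. Endothelial markers summed to 913 to 2434 over 10 genes in NR and to 850.5 to 1763 in Run, with Cldn5 at 111, 659.6 and 336 for non-runners and 173, 299.6 and 197 for runners, and Ly6c1 at 671, 1228 and 379 in the NR libraries and 549, 737 and 1010.5 in those of Run. Microglial markers summed to 55.0 to 509.7 over 10 genes in NR and to 179 to 921 in Run, with Tyrobp at 0, 214 and 268 for non-runners and 0, 194 and 0.0718 for runners, and C1qa at 0.293, 96.1 and 128 for non-runners and 49.5, 282 and 108 for runners. The complement gene C1qb had 0, 37.9 and 5.41 without running and 64.03, 220 and 130.1 with running. Every Run library was above every NR library, as for Nrep and Gap43. Its log2 difference of 4.29 ± 1.45 (SE; limma unadjusted p = 0.0212, adjusted p = 0.715) was larger than that of either. C1qb was the only 1 of the 5 tested microglial markers whose groups did not overlap, where 4.76% of all tested genes had Run above in this way. Differences of these 5 were positive for 3 and negative for 2, and none passed. Among 10 tested endothelial markers Flt1 alone had groups that did not overlap, with Run below, where 4.19% of all tested genes had this. Its values were 36.2, 58.9 and 54.9 for non-runners and 28.2, 9.76 and 25.7 for runners. Over the 10 endothelial markers differences were positive for 3 and negative for 7, and none passed. Of the granule neuron markers, Stxbp6 had 0, 30.7 and 0.296 without running and 102, 15.1 and 0 with running, and C1ql2 had 0, 68.3 and 28.4 in the NR libraries and 31.4, 3.06 and 0 in those of Run. Their list summed to 41.8 to 167 over 12 genes in NR and to 34.8 to 182 in Run. In Run replicate 3, where the set had its highest sum, granule neuron markers had their lowest of all 6 libraries, 34.8. In Run replicate 1, second in the set, they had their highest, 182, and NR replicate 2 was the highest of NR in both, at 167 for these markers. The part of these cells in the values of the set was not tested either.

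Annotation limits touched few of the genes. Marcksl1 has a named copy, Marcksl1-ps4, which was listed at 0 in all 6 libraries, and reads shared with it may have been counted for the parent gene. Neurod1 overlaps Cerkl on the same strand, which had at most 0.0896 FPKM, and lies across from the long non-coding RNA Gm26755. Sox4 lies across from another, Gm26735. Neither RNA was found by symbol in the table, and without a stated strand setting reads from the pairs cannot be told apart.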

How the data were processed

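Smart-seq2 libraries of sorted cells were deposited as 1 table of FPKM, which the authors made from their reads. The submitters' processing notes name StringTie 2.1.7, STAR 2.7.5c and Trimmomatic 0.39 among other tools, with mm10 as the build. The role of each tool and the annotation are not given in the sources used here. Read totals are not given either. FPKM summed to between 473786 and 492021 per library. Since 0 can stand for a failed estimate, genes are said to be listed at 0, and means ± SD are given for genes at FPKM 1 or more in all 6 libraries.

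Genes reaching FPKM 1 in 3 or more libraries, 6155 of 55367, were tested on log2(FPKM + 1), which understates changes of low genes, with limma 3.58.1 in R 4.3.3 (mean-variance trend, 2-sided, Benjamini-Hochberg adjustment over all tested genes, threshold 0.05) after a check on simulated data. Positions come from GENCODE on mm10. Tables and plots used matplotlib 3.10.9, scipy 1.17.1, pandas 2.3.3 and numpy 2.4.6 in Python 3.11.15. The members and lists were chosen with earlier results of these data known. All members are named. Of relatives, those at FPKM 1 or more in all 6 libraries, or the highest of a family, are named. Of the neuronal differentiation and progenitor lists, the 4 genes with the highest mean and the 2 with the smallest p are named, and of each marker list the 2 with the highest mean, except genes that are not reported here. Further genes were named after their values were seen: Vip, Gad1, Gad2, Ociad2, C1qb, Flt1, Slc32a1, Prox1, Eomes, Mki67, Neurog2 and Cdk1. The alternatives were another pseudocount, filter, floor, scaling or variance model, the replicate block, and each library left out.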

Additional observations from a re-analysis of the deposited data

How the results depend on the processing

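No gene of the set passed the adjusted threshold under any of the 15 other settings, and no gene of the table did. Of 130 recomputed differences of single genes, 122 kept their direction and 8 did not. Dpysl3 turned to 0.067 with a pseudocount of 10. With 1 library left out, Sox11 ran from -1.58 to 0.38, Neurod1 from -2.16 to 1.26, Calb2 from -0.50 to 2.93 and Dpysl3 from -2.23 to 1.24. Below an unadjusted p of 0.05 and with a log2 change of 1 or more stood 1 gene. That count became 0 with a pseudocount of 0.1, without a filter, after rescaling libraries to equal sums and without the variance trend, and ranged from 0 to 3 with 1 library left out. It was 3 without NR replicate 2 (Stmn1, Sox4 and Nrep) and 0 without Run replicate 1 or Run replicate 3. Of all tested genes 5.88% met this looser threshold without NR replicate 2, 5.72% without Run replicate 1 and 5.22% without Run replicate 3. With all 6 libraries 4.89% did. The count of genes whose groups do not overlap, also 1, was 2 after quantile normalization and ranged from 1 to 4 with 1 library left out. It was highest without Run replicate 2. In that fit 719 of the 6155 tested genes had Run above without overlap and 535 had Run below. With all 6 libraries these numbers were 293 and 258, and after quantile normalization 262 and 237. Groups with fewer libraries separate more easily, while quantile normalization kept all 6. The cause of the changed counts was not tested. The replicate block also gave 0 in place of 1 at the looser threshold. Replicate numbers are shared only by name. Deviations from the group means of same-numbered libraries correlated at 0.0211, 0.00416 and 0.0179 over genes, and those of other pairs from -0.019 to 0.000502. Each library correlated best with its own number. All of these values are near 0 and they are not independent, so they cannot tell whether the libraries were paired. Sparse values limit what can be seen: the median residual SD of tested genes was 1.98 on the log2 scale.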
